A study of Homo sapiens with 48 samples.

Results

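The subject here is the difference between 2 human prostate cancer cell lines, 22Rv1 and PC-3, in how their gene expression changed at the mildest hypoxia studied, 2 and 5% O2. For each gene the change in a line was the level at low oxygen minus the level in that oxygen level's own normoxia control, averaged over 2 and 5% O2. The line difference was the change in 22Rv1 minus the change in PC-3. It rests on 16 of the 48 arrays of the study, chosen by their labels: hypoxia and control at both levels in both lines, with 2 replicates of each. Only genes that 4 or more of a line's 8 arrays detected (detection p under 0.01) in both lines were kept, 10353 of 31426 gene symbols. PC-3 was derived from a metastasis in bone, whereas 22Rv1 was derived from a xenograft. Cells of both lines were held for 24 h at 37 °C in RPMI-1640 with serum, in a hypoxia chamber or in normoxia, and total RNA was hybridized to Illumina bead arrays of 47323 probes. Each side of the comparison is 1 cell line, so the values describe these lines. Nothing states that the replicates were separate cultures, and p-values measure the spread between these arrays, which may be technical.

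Cells sense low oxygen through prolyl hydroxylases that need oxygen to mark the alpha subunits of the hypoxia-inducible factors (HIF) for destruction. When oxygen falls, HIF accumulates and binds a short DNA core beside its target genes, which encode glycolytic enzymes, mitophagy receptors, angiogenic factors and collagen-modifying enzymes. Cancer cells differ in how much of this programme already runs in normal air. Prostate tumours are often poorly oxygenated, and oxygen of a few percent lies within the range of many healthy tissues.

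The core sequences that HIF binds, ACGTG and GCGTG, were looked for on both strands in the 250 bases before the RefSeq start of each gene (GRCh38.p14). The promoters of 4 genes with a line difference are printed, chosen among those that hold a core: BNIP3 (chr10:131981924-131982173, minus strand), PFKFB4 (chr3:48556804-48557053, minus strand), BHLHE40 (chr3:4979187-4979436, plus strand), which the array lists as BHLHB2, and LDHA (chr11:18394313-18394562, plus strand). Each is written 5′ to 3′ on the strand of the gene and ends at the base before the start, with the cores in capitals.
BNIP3: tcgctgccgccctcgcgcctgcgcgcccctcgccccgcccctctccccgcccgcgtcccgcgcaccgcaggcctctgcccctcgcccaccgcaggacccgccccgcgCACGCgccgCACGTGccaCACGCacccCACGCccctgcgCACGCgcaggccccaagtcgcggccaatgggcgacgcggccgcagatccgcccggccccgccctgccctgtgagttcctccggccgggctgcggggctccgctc
PFKFB4: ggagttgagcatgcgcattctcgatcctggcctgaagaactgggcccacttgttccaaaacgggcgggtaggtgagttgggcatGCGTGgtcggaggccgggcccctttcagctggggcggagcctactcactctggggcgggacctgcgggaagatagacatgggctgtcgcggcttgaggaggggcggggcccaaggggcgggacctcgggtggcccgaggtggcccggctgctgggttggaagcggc
BHLHE40: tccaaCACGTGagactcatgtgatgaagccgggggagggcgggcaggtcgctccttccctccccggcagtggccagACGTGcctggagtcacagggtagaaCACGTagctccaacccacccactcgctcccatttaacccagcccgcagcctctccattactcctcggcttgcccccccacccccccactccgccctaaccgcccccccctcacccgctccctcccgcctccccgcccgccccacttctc
LDHA: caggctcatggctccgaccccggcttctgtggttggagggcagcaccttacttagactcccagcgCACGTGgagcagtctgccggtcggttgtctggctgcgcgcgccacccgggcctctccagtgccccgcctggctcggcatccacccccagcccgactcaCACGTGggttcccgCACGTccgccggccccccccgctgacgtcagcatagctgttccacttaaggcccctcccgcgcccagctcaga
The BNIP3 window held 6 matches, 2 of ACGTG and 4 of GCGTG, counting both strands and overlaps. The BHLHE40 and LDHA windows held 4 and 5 matches of ACGTG and 0 of GCGTG. Neighbouring capitals such as CACGTG count once on each strand. PFKFB4 held 1 match of GCGTG. The windows of SLC16A3 and OSBP2, which also had a line difference, held 0 matches and are not printed.

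Among all 27305 RefSeq promoters, 43.1% held at least 1 core in this window, and of 7122 promoters matched to tested genes 60.4% did. Of the 17 genes with a larger change in 22Rv1, 13 had a promoter in the table and 12 of these held a core. The exception was SLC16A3. Of the 6 genes with a lower change in 22Rv1, 3 had a promoter and 1 of them held a core. Some of the genes are established HIF targets, and a match shows only that the letters occur in the window.

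Some known targets of HIF, BNIP3 and PFKFB4 among them, rose more in 22Rv1 than in PC-3, and others were not shown to differ. In limma, with Benjamini-Hochberg adjustment over the 10353 genes and a threshold of 0.05, 23 genes had a line difference (0.222% of those tested). The change was higher in 22Rv1 for 17 (0.164%) and lower for 6 (0.0580%), and 14 of the 23 differed at least 2-fold. These counts include ANKRD37, which in 22Rv1 met the detection filter only through its hypoxia arrays. Without adjustment, 706 genes had p under 0.05. When hypoxia and control arrays of the same number were treated as pairs (the pair block), 177 genes passed (1.71%), 136 higher (1.31%) and 41 lower (0.396%), and all 23 were among them. A block that only separates replicate 1 from replicate 2 within each line (the line block) gave 53, the 23 included. The estimates are the same with and without these blocks, which change only the error. With median centring of each array in place of quantile normalization, the median line difference of all genes was −0.31, and 8 of the 23 passed, 5 higher and 3 lower. The 15 lost calls kept their direction.

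By the lines' own changes the 17 higher genes fell into 2 kinds. The mitophagy receptors BNIP3 and BNIP3L, the mTORC1 inhibitor DDIT4, the fructose-2,6-bisphosphate enzymes PFKFB3 and PFKFB4, the collagen lysyl hydroxylase PLOD1 and the ankyrin repeat gene ANKRD37, 7 in all, rose in both lines and more in 22Rv1. The other 10 rose in 22Rv1 and did not pass the test in PC-3. Among these were the transcriptional repressor BHLHB2 (BHLHE40), lactate dehydrogenase A (LDHA), the lactate exporter SLC16A3, the growth factor VEGFB, the disulphide-forming enzyme QSOX1, the calcium-binding protein S100A6 and the receptor signalling inhibitor SPRY1. Of the 6 lower genes, SLCO4A1, OSBP2, RRAGA and CBX2 rose in PC-3 and did not pass in 22Rv1, and MT1X and E2F7 fell in 22Rv1 and did not pass in PC-3. No gene passed in opposite directions in the lines, although 2 did with the pair block.

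**Figure D1:**
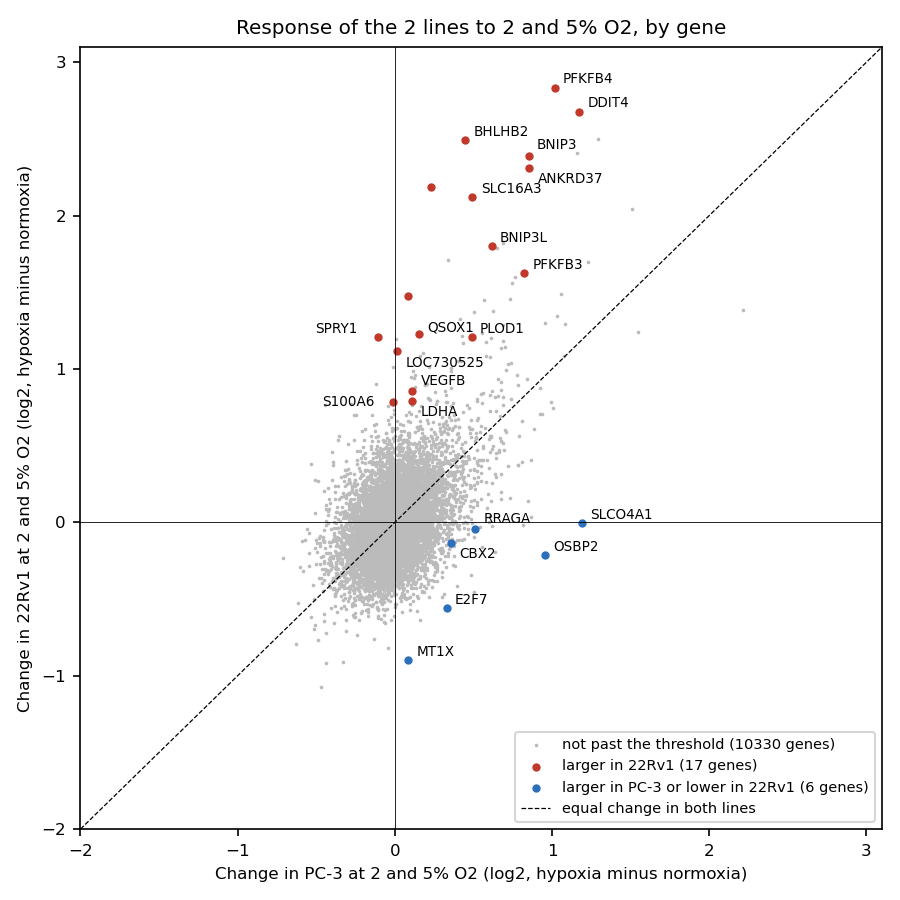
Each point is a gene, with its change in PC-3 on the x axis and in 22Rv1 on the y axis (log2, hypoxia minus own normoxia control, mean of 2 and 5% O2). The 17 genes with a larger change in 22Rv1 lie above the dashed line of equal change, with 22Rv1 values from 0.78 (S100A6) to 2.84 (PFKFB4), and the 6 others lie below it; 2 of the points are not labelled.

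The lines also differed in the number of genes that changed within each, but which line had more depended on the scaling. In 22Rv1 518 genes changed (5.00%), 348 higher (3.36%) and 170 lower (1.64%). In PC-3 140 changed (1.35%), 125 higher (1.21%) and 15 lower (0.145%). With the pair block the counts were 1667 in 22Rv1 and 429 in PC-3. With 1 array left out they ran from 211 (without 22Rv1 hypoxia replicate 1 at 2% O2) to 492 in 22Rv1 and from 50 (without PC-3 normoxia replicate 1 at 5% O2) to 140 in PC-3. Under median centring the order turned, with 77 in 22Rv1, 70 higher and 7 lower, and 161 in PC-3, all higher. That scaling centred each array on the median of all 47323 probes, of which 14386 to 16002 were detected per array. It moved the median change of the respiratory chain and ATP synthase list from −0.09 to −0.18 in 22Rv1. In PC-3 that list median moved from −0.06 to 0.17. How far such shifts set the order of the lines was not tested. Of the risers in the main processing 74 were shared, 21.3% of those in 22Rv1 and 59.2% of those in PC-3, and 46 of the 74 rose more in 22Rv1. The median rise of these 74 was 0.79 on the log2 scale in 22Rv1 and 0.68 in PC-3. Of the falling genes 1 was shared. A gene that passed in 1 line and not in the other is not thereby shown to differ, which is what the 23 genes above rest on.

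BNIP3, which recruits damaged mitochondria for removal, had the smallest adjusted p of the line difference. Its log2 levels in 22Rv1 were 9.29 and 9.26 (controls of 5% O2), 11.61 and 10.94 (5% O2), 9.47 and 9.68 (controls of 2% O2) and 12.45 and 12.26 (2% O2). In PC-3 they were 11.40 and 11.59 (controls of 5% O2), 12.10 and 12.09 (5% O2), 11.43 and 11.55 (controls of 2% O2) and 12.58 and 12.61 (2% O2). The 22Rv1 arrays at low oxygen stood above all their controls and at 2% O2 came close to, but stayed below, PC-3, which started higher. BNIP3 rose 5.25-fold in 22Rv1 and 1.81-fold in PC-3, a difference of 1.54 ± 0.17 on the log2 scale (SE, 8 arrays per line, limma adjusted p = 3.32e-06). Its pair changes ran from 1.68 to 2.97 in 22Rv1 and from 0.50 to 1.15 in PC-3 and did not overlap. Across all genes tested the pair changes of the lines did not overlap for 917 (8.86%). The related receptor BNIP3L rose by 1.80 ± 0.16 in 22Rv1 and 0.62 ± 0.16 in PC-3 (difference 1.19 ± 0.23, limma adjusted p = 0.00901). The call for BNIP3L ended without 22Rv1 hypoxia replicate 1 at 5% O2 (1.05, adjusted p = 0.0597), with the mean of its probes (1.00, adjusted p = 0.0744) and under median centring (0.83, adjusted p = 0.372). The other 18 measured genes of the autophagy and mitophagy list did not pass.

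Across the 21 measured HIF core targets, of 25 listed, 8 had a larger change in 22Rv1 and 0 in PC-3, and 10 did with the pair block. The median difference of the targets was 0.68 on the log2 scale, against −0.01 for all genes, and 20 of the 21 differences were above 0. In 22Rv1 20 targets rose and in PC-3 12 (21 and 19 with the pair block), with median changes of 1.38 and 0.72. Over all genes 3.36% rose in 22Rv1 and 1.21% in PC-3. Under median centring 3 of the 21 passed, the median difference was 0.41 against −0.31 for all genes, 15 of the 21 differences were above 0 and 16 targets rose in each line. The targets were listed with earlier results of these data known, and the counts describe them. BHLHB2, PFKFB4, BNIP3, DDIT4, ANKRD37, BNIP3L, PFKFB3 and LDHA passed. Of these ANKRD37 met the detection filter in 22Rv1 only through its hypoxia arrays, since 0 of the 4 normoxia arrays detected it. P4HA1, a collagen prolyl hydroxylase (1.14 ± 0.28, adjusted p = 0.0959), and the vasodilator peptide gene ADM (1.25 ± 0.37, adjusted p = 0.247) did not pass, and passed with the pair block (adjusted p = 2.3e-05 and 0.00553) and the line block (adjusted p = 0.0011 and 0.0274).

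Not all targets differed between the lines. The glucose transporter SLC2A1 rose by 1.35 ± 0.16 in 22Rv1 and 1.03 ± 0.16 in PC-3, a difference of 0.32 with a 95% interval from −0.13 to 0.77. The lipid droplet gene C7orf68 (HILPDA) changed by 0.55 ± 0.15 and 0.52 ± 0.15 (interval −0.39 to 0.46), where the PC-3 value did not pass (adjusted p = 0.0872). INSIG2, a brake on sterol synthesis, rose by 0.76 ± 0.15 and 0.69 ± 0.15 (interval −0.36 to 0.51). These intervals leave room for differences in either direction, so equal change is not shown. ANGPTL4, whose protein blocks lipoprotein lipase, had the larger rise in PC-3, 2.22 ± 0.27 against 1.38 ± 0.27, but this difference of −0.84 ± 0.38 did not pass (adjusted p = 0.688, 0.0917 with the block). The remaining targets had differences between 0.28 (ERO1L, current symbol ERO1A) and 0.75 (JMJD1A, current symbol KDM3A), and these did not pass: VEGFA at 0.59 ± 0.30, NDRG1 at 0.54 ± 0.35, ANKZF1 at 0.34 ± 0.30 and FAM162A at 0.31 ± 0.61 lay among them. A dimmer probe of ANKZF1 gave −0.32, so its probes disagree in sign, and a dimmer probe of ANGPTL4 gave 0.02. No size is given for MXI1, which 1 of 4 normoxia arrays of 22Rv1 detected.

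**Figure D2:**
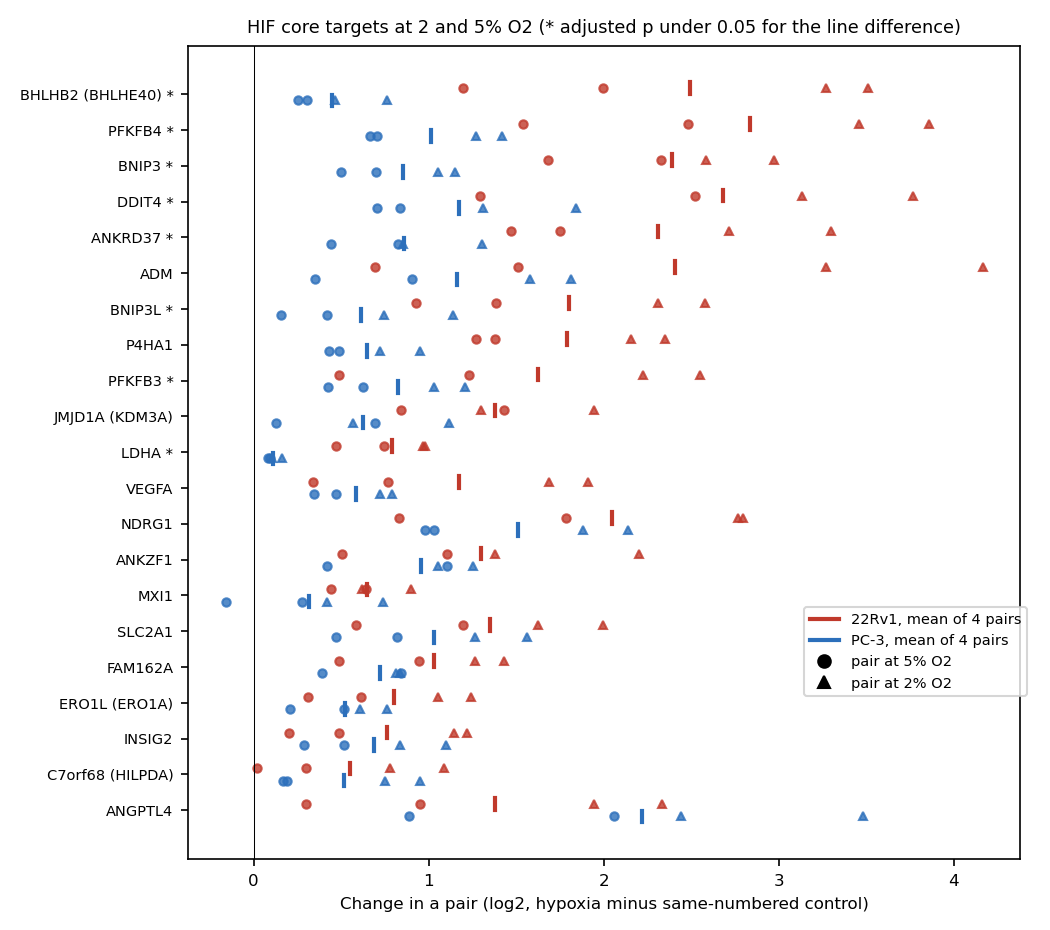
Change in each of the 4 pairs of a line (log2, hypoxia minus same-numbered control; circles 5% O2, triangles 2% O2) for the 21 HIF core targets, with bars for the line means, 22Rv1 in red and PC-3 in blue. The 22Rv1 means lie right of the PC-3 means for all targets but ANGPTL4 (1.38 against 2.22), and by the most for BHLHB2 (2.49 against 0.45).

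Genes of glucose use were also among those that differed. PFKFB4 and PFKFB3 make the activator of phosphofructokinase, LDHA makes lactate and SLC16A3 (the transporter MCT4) exports it. The log2 levels of PFKFB4 in 22Rv1 were 7.51 and 7.48 (controls of 5% O2), 9.99 and 9.02 (5% O2), 7.43 and 7.69 (controls of 2% O2) and 11.29 and 11.15 (2% O2). In PC-3 they were 10.01 and 10.35 (controls of 5% O2), 10.67 and 11.05 (5% O2), 9.90 and 10.33 (controls of 2% O2) and 11.32 and 11.60 (2% O2). Each 22Rv1 hypoxia array stood above each 22Rv1 control, by more at 2% than at 5% O2, and PC-3 also rose from a higher start. PFKFB4 rose 7.14-fold in 22Rv1 and 2.02-fold in PC-3 (difference 1.82 ± 0.23, adjusted p = 1.14e-05 in limma). PFKFB3 rose by 1.62 ± 0.12 and 0.82 ± 0.12 (difference 0.80 ± 0.16, adjusted p = 0.0194). The PFKFB3 call ended in 8 of the 16 fits that left out 1 array, with values from 0.63 to 0.97, with the mean of its probes (0.57, adjusted p = 0.267) and under median centring (0.44, adjusted p = 0.379). It also ended with the 16 arrays fitted alone (limma adjusted p = 0.116).

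SLC16A3 had a line difference between those of PFKFB4 and PFKFB3. Its log2 levels in 22Rv1 were 7.62 and 7.83 (controls of 5% O2), 9.43 and 8.84 (5% O2), 7.51 and 7.90 (controls of 2% O2) and 10.68 and 10.41 (2% O2). In PC-3 they were 10.77 and 10.91 (controls of 5% O2), 11.15 and 11.18 (5% O2), 10.87 and 10.95 (controls of 2% O2) and 11.66 and 11.49 (2% O2). SLC16A3 changed 4.36-fold in 22Rv1 and 1.41-fold in PC-3, where the change did not pass (adjusted p = 0.0755, 0.0164 with the pair block). Its line difference was 1.63 ± 0.20 (limma adjusted p = 7.73e-06). LDHA levels in 22Rv1 were 12.45 and 12.55 (controls of 5% O2), 13.20 and 13.02 (5% O2), 12.56 and 12.63 (controls of 2% O2) and 13.54 and 13.60 (2% O2). LDHA levels in PC-3 were 13.73 and 13.73 (controls of 5% O2), 13.82 and 13.82 (5% O2), 13.72 and 13.68 (controls of 2% O2) and 13.83 and 13.85 (2% O2). The groups of 22Rv1 did not overlap, and LDHA in PC-3 stood close to the ceiling of the arrays: 31 of 47323 probes were brighter in PC-3 normoxia, and the highest level on the 16 arrays was 14.0. LDHA rose by 0.79 ± 0.05 in 22Rv1 and changed by 0.11 ± 0.05 in PC-3 (difference 0.68 ± 0.08, adjusted p = 3.58e-06). The LDHA call ended under median centring (0.41, adjusted p = 0.372). A second bright probe of LDHA gave changes of 0.88 and 0.20 (difference 0.68). A far dimmer probe, at a mean level of 5.53, gave changes of 1.03 and 0.59 (difference 0.44). Whether the ceiling sets part of the LDHA difference was not tested.

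In the list of glucose uptake and glycolysis, 4 of 24 measured genes passed in the main comparison and 10 with the pair block, all with the larger change in 22Rv1. Those past only with the block were the hexokinase HK2 (1.14), ALDOC (0.81) and ALDOA (0.52), PGK1 (0.60), PKM2 (current symbol PKM, 0.51) and the enolase ENO1 (0.36). Of these HK2, ALDOC and PGK1 also passed with the line block. The median difference of the list was 0.24 on the log2 scale. Other genes of the list are given as examples, without intervals: TPI1 rose by 0.31 in 22Rv1 and 0.37 in PC-3, ENO2 by 0.79 and 0.99 and GBE1, which branches glycogen, by 0.73 and 0.64. Equal change is not shown for them. In 22Rv1 18 of the 24 rose and in PC-3 10, against 3.36% and 1.21% of all genes. The pair block gave 21 and 19 and median centring 10 and 14, so which line had more risers depended on the scaling. Under median centring the list median was −0.06, against −0.31 for all genes, so the sign of the list median depends on the scaling while it stays above that of all genes.

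BHLHB2, a repressor of clock and differentiation genes, had the largest line difference of the sized genes. Its log2 levels in 22Rv1 were 5.39 and 5.43 (controls of 5% O2), 7.39 and 6.63 (5% O2), 5.56 and 5.65 (controls of 2% O2) and 9.07 and 8.93 (2% O2). In PC-3 they were 10.80 and 11.07 (controls of 5% O2), 11.06 and 11.37 (5% O2), 10.98 and 11.17 (controls of 2% O2) and 11.45 and 11.93 (2% O2). In 22Rv1 it was dim in normoxia and climbed at both levels without reaching PC-3, where the gene was abundant in every group. BHLHB2 rose 5.63-fold in 22Rv1 and changed 1.36-fold in PC-3, which passed only with the pair block (difference 2.05 ± 0.28, limma adjusted p = 4.56e-05). DDIT4, which restrains mTORC1 when oxygen or energy falls, rose 6.40-fold and 2.26-fold. Its difference of 1.50 ± 0.32 (adjusted p = 0.0248) had overlapping pairs, with 1.29 to 3.77 in 22Rv1 and 0.71 to 1.84 in PC-3. The DDIT4 call ended without any one of 9 of the 16 arrays, the value running from 1.19 (without 22Rv1 hypoxia replicate 1 at 5% O2, adjusted p = 0.148) to 1.82, and it ended under median centring (1.15, adjusted p = 0.372). It also ended with the 16 arrays fitted alone (limma adjusted p = 0.115). ANKRD37 was not well above background on any of the 4 normoxia arrays of 22Rv1. In the main processing it was at least 3.89-fold higher in hypoxia there, and its change exceeded that of PC-3 by at least 2.15-fold. These are not bounds for other processing, and without background correction the difference was 0.45 on the log2 scale. The limma adjusted p of 0.00945 belongs to the estimate without the bound, which uses undetected levels. This call ended without background correction (adjusted p = 0.695), under median centring (adjusted p = 0.372) and in 3 of the 16 fits that left out 1 array.

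Secretory pathway and matrix genes and a growth factor were also among the 17. VEGFB levels in 22Rv1 were 8.30 and 8.39 (controls of 5% O2), 8.84 and 8.82 (5% O2), 8.55 and 8.45 (controls of 2% O2) and 9.78 and 9.67 (2% O2), while PC-3 stayed between 10.34 and 10.68 on all 8 arrays. VEGFB, a relative of VEGFA that acts through VEGFR1, rose by 0.86 ± 0.08 in 22Rv1 and changed by 0.11 ± 0.08 in PC-3 (difference 0.74 ± 0.11, limma adjusted p = 0.000357). QSOX1, which forms disulphide bonds in secreted proteins, rose by 1.23 ± 0.15 and changed by 0.15 ± 0.15 (difference 1.08 ± 0.21, adjusted p = 0.00945). PLOD1 rose by 1.21 ± 0.11 and 0.49 ± 0.11 (difference 0.72 ± 0.16, adjusted p = 0.0478), and this call ended in 15 of the 16 fits that left out 1 array, with values from 0.59 to 0.85. In the list of collagen modification and matrix 1 of 7 measured genes passed and 3 with the block, PLOD1, PLOD2 (0.59, lost with the line block) and P4HA1. COL7A1, the anchoring fibril collagen, rose by 1.24 in 22Rv1 and 1.55 in PC-3. The QSOX1 call ended without background correction (0.76, adjusted p = 0.102) and without 22Rv1 hypoxia replicate 1 at 5% O2 (0.97, adjusted p = 0.0597), and the VEGFB call with the mean of its probes (0.61, adjusted p = 0.0867). Under median centring the calls for VEGFB (0.37, adjusted p = 0.408), QSOX1 (0.75, adjusted p = 0.372) and PLOD1 (0.37, adjusted p = 0.409) all ended.

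SPRY1, an inhibitor of receptor tyrosine kinase signalling, rose 2.31-fold in 22Rv1 and changed by −0.11 ± 0.15 in PC-3 (difference 1.32 ± 0.22, adjusted p = 0.00142). Its relatives SPRY2 and SPRY4 had differences of 0.06 ± 0.25 and −0.16 ± 0.27. S100A6 rose by 0.78 ± 0.12 in 22Rv1 and changed by −0.01 ± 0.12 in PC-3 (difference 0.80 ± 0.16, adjusted p = 0.0198). Its call ended in 8 of the 16 fits that left out 1 array, with values from 0.68 to 0.92. Under median centring the calls for SPRY1 (0.99, adjusted p = 0.372) and S100A6 (0.41, adjusted p = 0.379) both ended.

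BHLHB2 and S100A6 are genes that PC-3 expressed far above 22Rv1, so the arrays were checked for PC-3 RNA in the 22Rv1 samples. CAV1, a marker of PC-3, had a mean log2 level of 12.24 in PC-3 normoxia and was not detected on any of the 8 arrays of 22Rv1, at 4.60 in normoxia and 4.73 in hypoxia. Of the other PC-3 markers CD44, detected in both lines, rose in 22Rv1 from 7.03 to 7.45 (limma adjusted p = 0.0414). VIM was at 7.76 and 7.91 there and ANXA1 at 5.29 and 5.43, and neither passed. AKR1C3 was detected on 3 of the 4 normoxia arrays of 22Rv1 and 0 of the hypoxia arrays, and IL1A in neither line. The summed linear intensities of the 6 PC-3 markers were 442 to 520 in 22Rv1 normoxia and 487 to 590 in 22Rv1 hypoxia, against 11887 to 13160 in PC-3 normoxia. The part of PC-3 RNA in the results was not tested. Of the 6 markers of 22Rv1, KLK3 was not detected in either line. HOXB13 was detected in both and was higher in PC-3 than in 22Rv1 (9.04 against 8.74 in normoxia, 9.11 against 8.86 in hypoxia). By their sum these 6 told the lines apart. Their summed linear intensities were 1466 to 1597 in 22Rv1 normoxia and 620 to 803 in PC-3 normoxia.

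The genes with the opposite difference were led by a transporter. SLCO4A1 carries organic anions and thyroid hormone into cells. Its log2 levels in PC-3 were 8.60 and 8.92 (controls of 5% O2), 9.77 and 9.72 (5% O2), 8.63 and 8.93 (controls of 2% O2) and 9.90 and 10.47 (2% O2). In 22Rv1 all 8 arrays lay between 6.43 and 6.69, so the hypoxia and control groups overlapped there and were apart in PC-3. SLCO4A1 rose 2.28-fold in PC-3 and changed by −0.01 ± 0.16 in 22Rv1 (difference −1.20 ± 0.23, limma adjusted p = 0.00945). Log2 levels of the oxysterol-binding protein gene OSBP2 in PC-3 were 6.98 and 7.53 (controls of 5% O2), 7.63 and 8.09 (5% O2), 6.92 and 7.40 (controls of 2% O2) and 8.12 and 8.83 (2% O2). It rose by 0.96 ± 0.16 in PC-3 and changed by −0.21 ± 0.16 in 22Rv1, where it lay near the detection limit and 2 of the 4 hypoxia arrays detected it (difference −1.17 ± 0.23, adjusted p = 0.0119). RRAGA, a GTPase that brings mTORC1 to the lysosome, rose by 0.51 ± 0.09 in PC-3 and changed by −0.04 ± 0.09 in 22Rv1 (−0.55 ± 0.12, adjusted p = 0.0478). The Polycomb subunit CBX2 rose by 0.36 ± 0.08 and changed by −0.14 ± 0.08 (−0.49 ± 0.11, adjusted p = 0.0478). Leaving out 1 array ended the SLCO4A1 call in 2 of 16 fits (values −1.34 to −1.06), that of OSBP2 in 5 (−1.35 to −0.99), that of RRAGA in 13 (−0.65 to −0.45) and that of CBX2 in all 16 (−0.53 to −0.46). Under median centring the calls for RRAGA (−0.89, adjusted p = 0.372) and CBX2 (−0.84, adjusted p = 0.372) ended.

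Metallothioneins are small proteins that bind zinc and copper, and MT1X had a lower change in 22Rv1. MT1X levels in 22Rv1 were 9.75 and 9.51 (controls of 5% O2), 8.87 and 8.92 (5% O2), 9.53 and 9.67 (controls of 2% O2) and 8.25 and 8.84 (2% O2). In PC-3 they were 10.38 and 10.49 (controls of 5% O2), 10.22 and 10.40 (5% O2), 10.52 and 10.51 (controls of 2% O2) and 10.41 and 11.23 (2% O2). All hypoxia arrays of 22Rv1 lay below their controls, and the PC-3 groups overlapped. MT1X fell by 0.90 on the log2 scale in 22Rv1 and changed by 0.09 ± 0.15 in PC-3 (difference −0.98 ± 0.21, limma adjusted p = 0.0303). The MT1X call ended in 11 of 16 fits that left out 1 array (−1.19 to −0.78) and under median centring (−1.34, adjusted p = 0.073). It also ended without background correction (−0.87, adjusted p = 0.0526) and with the deposited value table (−0.88, adjusted p = 0.0537). Other losses came without a variance trend (adjusted p = 0.0548) and with the 16 arrays fitted alone (adjusted p = 0.111). Of the 10 measured genes of the metallothionein and zinc list 1 passed and 3 with the pair block, MT1X, MT2A (−0.58 ± 0.18) and MT1A (−0.49 ± 0.16), of which MT1X alone passed with the line block. All 10 differences were below 0, with a median of −0.46. Over all genes 1.64% fell in 22Rv1 and 0.145% in PC-3, and with the pair block 764 and 125 of the 10353. In this list 5 of the 10 fell in 22Rv1 and 0 in PC-3, while with the pair block 7 fell in 22Rv1 and 2 in PC-3. Those 2 were MT2A (−0.33 ± 0.13) and MT1G (−0.44 ± 0.24), lower in all 4 PC-3 pairs. Under 3 other scalings the list median stayed between −0.76 and −0.34, with 9 or 10 of the 10 differences below 0. The value of −0.76 came with median centring, where the median of all genes was −0.31. Metallothionein sequences are close to each other, and a probe can report its relatives.

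E2F7, an atypical E2F factor that represses cell cycle genes, fell by 0.56 on the log2 scale in 22Rv1 and changed by 0.33 ± 0.12 in PC-3 (difference −0.89 ± 0.17, limma adjusted p = 0.00819). Its pair changes were −0.85 to −0.20 in 22Rv1 and 0.14 to 0.49 in PC-3. The call ended without 22Rv1 hypoxia replicate 1 at 5% O2 (−0.74, adjusted p = 0.0579). No gene of the DNA replication and mitosis lists passed, while 0.222% of all genes did (1.71% with the pair block). Of 38 replication genes 0 passed (0 with the block), 36 differences were below 0 and the median was −0.25. Of 31 mitosis genes 0 passed (1 with the block, PLK4 at −0.45 ± 0.13), 30 were below 0 and the median was −0.27. Under median centring the medians were −0.59 and −0.60, against −0.31 for all genes. In 22Rv1 9 replication genes and 4 mitosis genes fell, among them MCM2 (−0.57), MCM5 (−0.56), UBE2C (−0.34) and CCNA2 (−0.41), and in PC-3 none of either list passed. Over all genes 1.64% fell in 22Rv1 and 0.145% in PC-3, and with the pair block 764 and 125 of the 10353. With the pair block 25 replication and 16 mitosis genes fell in 22Rv1 and 2 replication genes in PC-3. Under median centring 0 of either list passed in either line. Genes of a cell cycle phase move together, so these members are not separate observations.

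**Figure D3:**
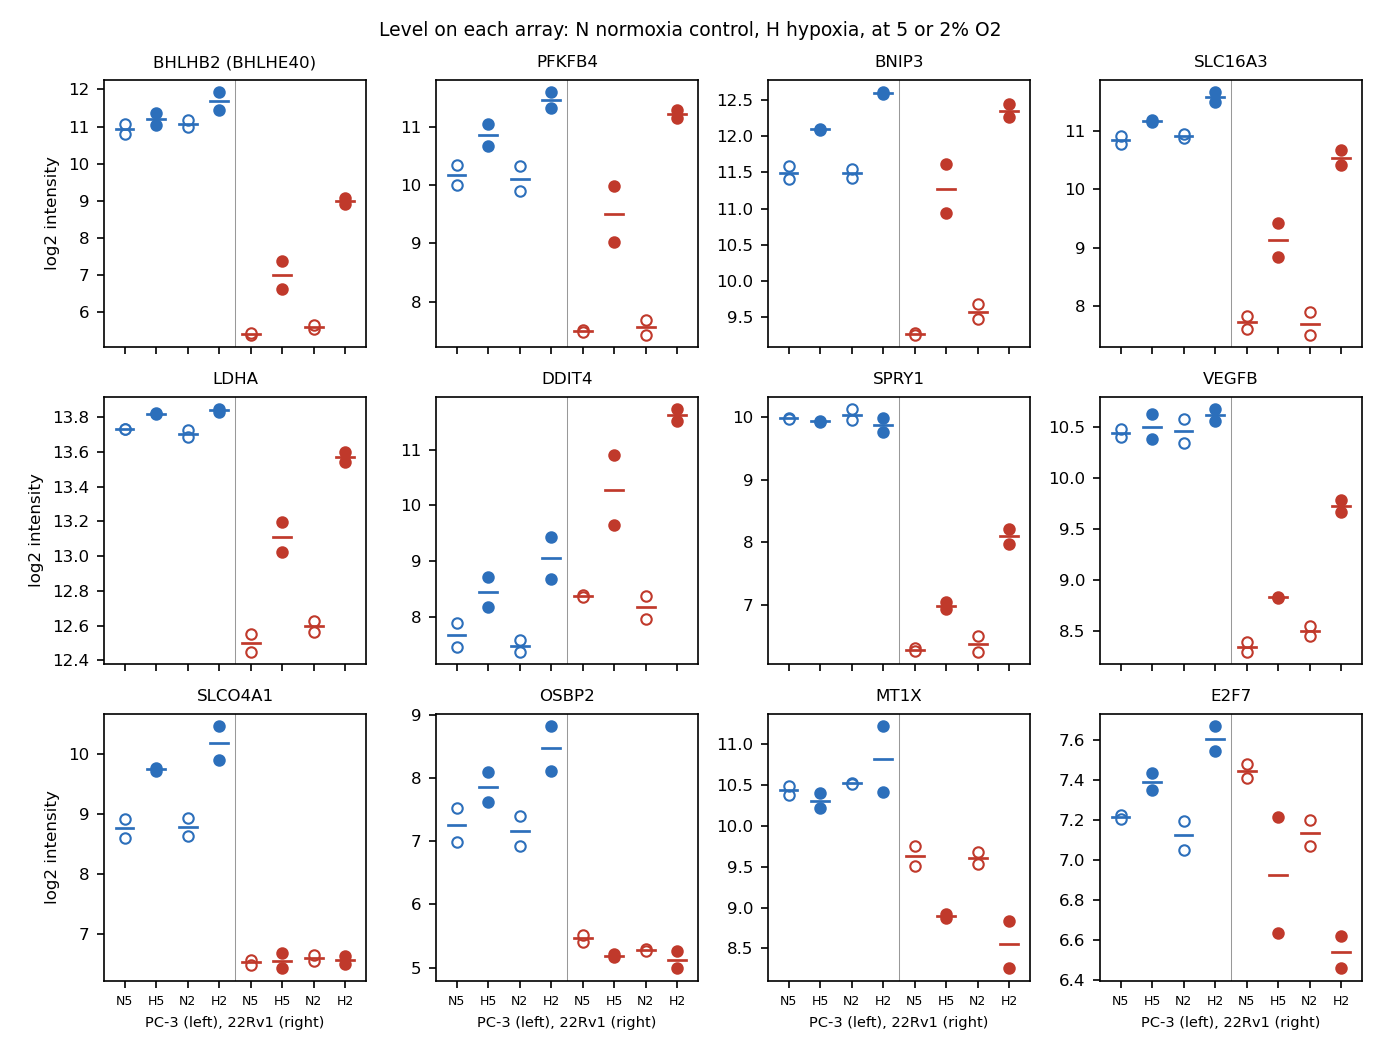
Log2 level on each array for 12 genes: open circles normoxia controls (N), filled circles hypoxia (H), at 5 or 2% O2, with PC-3 in blue on the left, 22Rv1 in red on the right and bars for the means of 2 replicates. In the upper rows 22Rv1 rises, from a lower start than PC-3 for every gene but DDIT4 (BHLHB2 from 5.39 to 9.07), and in the bottom row SLCO4A1 and OSBP2 rise in PC-3 while MT1X and E2F7 fall in 22Rv1; each panel has its own y axis.

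Most of the 17 genes had started lower in 22Rv1. In normoxia 16 of the 17 were lower in 22Rv1 than in PC-3, with DDIT4 the exception (0.70 higher), and the median gap was −2.62 on the log2 scale. At low oxygen the median gap was −1.28, 15 of the 17 were still lower in 22Rv1, and the gap was narrower than in normoxia for 16. Over all genes 4600 of 10353 were lower in 22Rv1 normoxia and 4680 at low oxygen, and the gap was narrower at low oxygen for 4847. For a gene that starts lower, a larger rise in itself tends to narrow the gap. The normoxia level enters the line difference itself, so the gap and the difference share arrays and are given side by side only. For PFKFB4 the gap was −2.62 in normoxia and −0.80 at low oxygen. It went from −2.07 to −0.53 for BNIP3 and from −1.17 to −0.49 for LDHA. BNIP3L went from −0.87 to 0.32. Levels of 1 probe are compared between the lines here, not levels of different genes.

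More genes passed at 2% than at 5% O2. At 2% alone 26 genes passed (0.251%; 169 with the pair block), 21 higher in 22Rv1 and 5 lower, among them BHLHB2 (2.78 ± 0.39), PFKFB4 (2.31 ± 0.32) and SLC16A3 (2.18 ± 0.28). The lowest values were those of OSBP2 (−1.47 ± 0.33), SLCO4A1 (−1.44 ± 0.33), MT1X (−1.35 ± 0.30) and E2F7 (−1.08 ± 0.24). At 5% alone BNIP3 was the only gene past the threshold (0.00966%), with 1.41 ± 0.24 (limma adjusted p = 0.0193) and 182 genes at an unadjusted p under 0.05, while with the pair block 2 genes passed. This count was 0 without a variance trend, with the 16 arrays fitted alone, under median centring and in 7 of the 16 fits that left out 1 array, among them that without PC-3 hypoxia replicate 1 at 5% O2. All 17 higher genes had a larger estimate at 2% than at 5% (medians 1.74 and 0.91), and all 6 lower genes a lower one. Tested directly, 0 genes differed between 2 and 5% O2 (0% of the 10353, and 0 with the pair block), and 202 had an unadjusted p under 0.05. A step between these levels was thus not shown. The size of step that 2 arrays in a group could detect was not tested.

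At 5% O2 the 22Rv1 replicates stood apart for these genes. In hypoxia at 5% replicate 1 was above replicate 2 for all 17 higher genes, by a median of 0.59 on the log2 scale, while over all genes the median gap was 0.02 with an SD of 0.30. In the 5% controls replicate 1 was above replicate 2 for 10 of the 17, with a median of 0.03, and in hypoxia at 2% O2 for 13 of them, with a median of 0.16. Without replicate 1 of this group the line difference was called for 11 genes, and without replicate 2 for 37. BHLHB2, PFKFB4, SLC16A3 and BNIP3 were among the genes that passed in all 16 fits that left out 1 array. Their values then ran from 1.86 to 2.24, 1.58 to 2.06, 1.48 to 1.78 and 1.37 to 1.71.

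The same contrast at 1, 0.5 and 0.2% O2, on 24 other arrays, showed whether the difference held at lower oxygen. There 2458 of the 10353 genes differed (23.7%; 3801 with the pair block), among them all 23. For 16 of the 17 higher genes the difference was larger than at 2 and 5% O2, the exception being DDIT4 (1.22 against 1.50), and for all 6 lower genes it was further below 0. BHLHB2 went from 2.05 to 3.17, BNIP3 from 1.54 to 1.90 and SLCO4A1 from −1.20 to −1.32. Tested directly, 15 genes changed their line difference between the mild and the lower levels (0.145%), 5 upward and 10 downward. RAB31, a small GTPase of vesicle traffic, had the largest step, from 1.19 to 3.85 (2.67 ± 0.38, limma adjusted p = 0.000713). NBAS (1.20), the tetraspanin TSPAN9 (1.16) and the pseudogene KRT18P13 (0.99) also went up. TMEM158 (−1.36), the sialomucin PODXL (−1.24), the 14-3-3 protein SFN (−1.18), the cyclin CCND3 (−1.07) and CEP135, a centriole protein (−1.01), went down.

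These step calls depend on single arrays. The count was 236 without the 2 arrays of 22Rv1 replicate 2 at 0.2% O2 whose labels differ between the deposited tables, 351 with the pair block, and between 2 (for example without PC-3 hypoxia replicate 1 at 5% O2) and 256 (without 22Rv1 hypoxia replicate 2 at 0.2% O2) with 1 array left out. Both doubted arrays lie outside 2 and 5% O2, so they leave the estimates of the line difference at 2 and 5% O2 as they are. They touch it only through the shared spread, but they enter the estimates at 0.2 to 1% O2 directly. Without them 36 genes passed at 2 and 5% O2, under the other table's labels the count was 0, and with the 16 arrays fitted alone 21. The fit of the 16 arrays alone lost 6 of the 23 calls, those of DDIT4, PFKFB3, OSBP2, MT1X, RRAGA and CBX2.

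**Figure D4:**
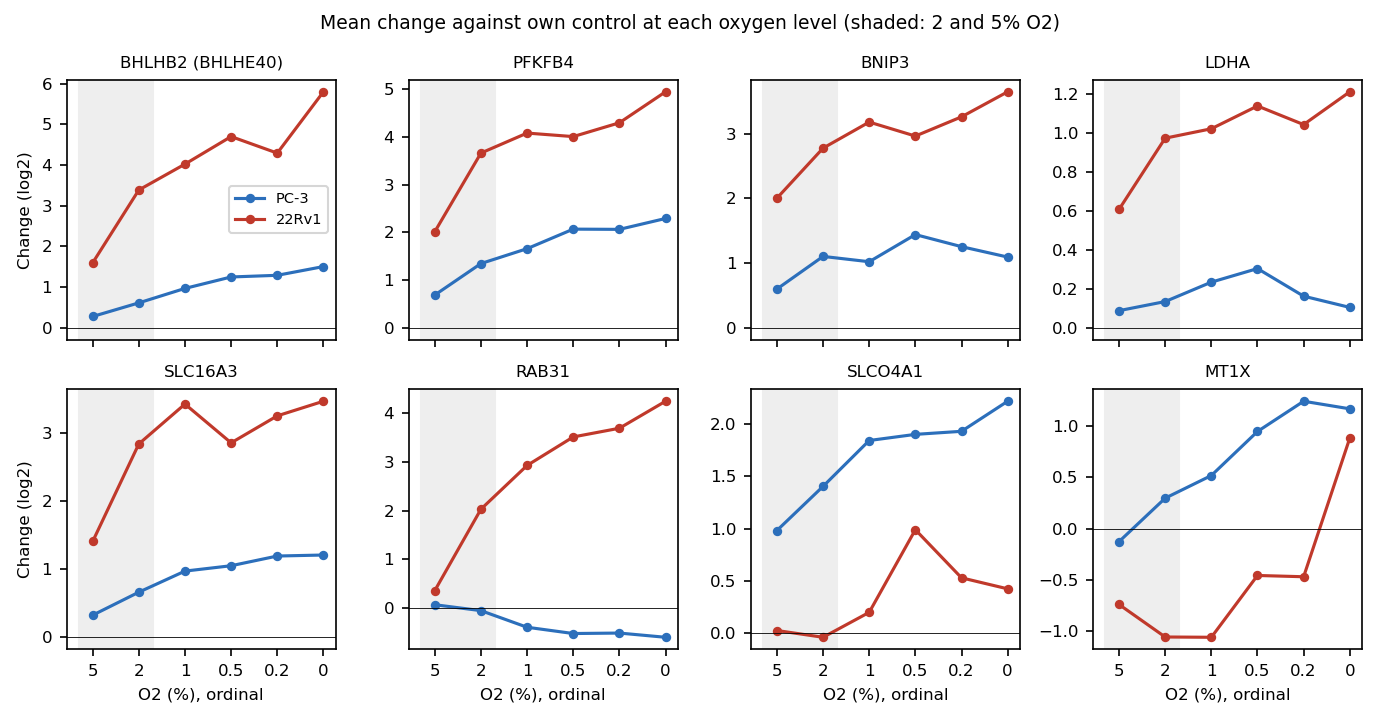
Mean change of hypoxia against its own control (y axis, log2, 2 arrays against 2) at each oxygen level (x axis, evenly spaced) for 8 genes, PC-3 in blue and 22Rv1 in red, with 2 and 5% O2 shaded. LDHA runs from 0.61 to 1.21 in 22Rv1 and from 0.09 to 0.30 in PC-3, RAB31 is at 0.36 in 22Rv1 at 5% O2 and at 2.03 at 2%, and MT1X is below 0 in 22Rv1 down to 0.2% O2. The 22Rv1 points at 0.2% O2 include the 2 arrays whose labels differ between the deposited tables.

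Whether PC-3 had the 22Rv1 change at lower oxygen was asked by setting 22Rv1 at 2 and 5% against PC-3 at 0.2 to 1% O2. This comparison uses other PC-3 arrays but the same 8 of 22Rv1. It called 250 genes (2.41%; 860 with the pair block), 105 higher and 145 lower in 22Rv1. Of the 17 higher genes 12 had the larger change in 22Rv1, among them SPRY1 (1.40 ± 0.20), BHLHB2 (1.32 ± 0.25), BNIP3 (1.15 ± 0.15) and LDHA (0.56 ± 0.07). Over all 10353 genes the count was 105. The 17 were chosen on these same 22Rv1 arrays, so the 12 are not separate support for them. For PFKFB3 (0.09 ± 0.15), DDIT4 (0.31 ± 0.29), PLOD1 (0.37 ± 0.15) and BNIP3L (0.52 ± 0.21) the difference did not pass, nor for ANKRD37. The HIF core targets split: BHLHB2, PFKFB4, BNIP3 and LDHA were higher in 22Rv1 at 2 and 5% O2, ANGPTL4 (−3.10 ± 0.34), SLC2A1 (−0.76 ± 0.20), C7orf68 (−0.76 ± 0.19) and INSIG2 (−0.71 ± 0.20) were higher in PC-3 at 0.2 to 1%, and the median was 0.09. The other 13 targets did not pass.

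No measured regulator of the pathway passed the test, and only 0.222% of all genes did (1.71% with the pair block). Of 14 measured genes of HIF subunits, oxygen sensors and feedback 0 passed (0 with the block), with a median of 0.01. This count is near the share over all genes and says little about these 14. HIF1A, the oxygen-regulated subunit, had a difference of 0.03 and EGLN1, the main oxygen sensor, 0.13. The 2 with the largest differences were the chaperone HSP90AA1 (−0.34 ± 0.13) and VHL, which targets HIF for destruction (0.28 ± 0.14). Of the other lists, angiogenic factors had 1 of 8 genes past the threshold (VEGFB), transcriptional repressors and clock 1 of 12 (BHLHB2), immediate early genes and phosphatases 1 of 18 (SPRY1), pH and ion control 1 of 8 (SLC16A3) and mTORC1 brakes 1 of 7 (DDIT4).

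No member of the remaining lists passed, of which 5 are given. Of all genes 0.222% passed. The medians were −0.15 for NRF2 and redox (19 genes, 13 below 0), −0.01 for the respiratory chain and ATP synthase (29 genes), −0.03 for sterol synthesis (18), −0.07 for ribosome biogenesis (22) and 0.06 for the integrated stress response (16). Among the larger differences there were those of UQCRC2 (0.22 ± 0.27), the sterol desaturase gene SC5DL (current symbol SC5D, −0.39 ± 0.15), CD3EAP (0.47 ± 0.26) and the stress cytokine gene GDF15 (0.70 ± 0.46). With the pair block the acyl-CoA synthetase gene ACSL3 (0.51 ± 0.14, adjusted p = 0.00274) and the keratin KRT19 (0.41 ± 0.16, adjusted p = 0.0448) passed in 2 further lists, and neither passed with the line block.

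**Figure D5:**
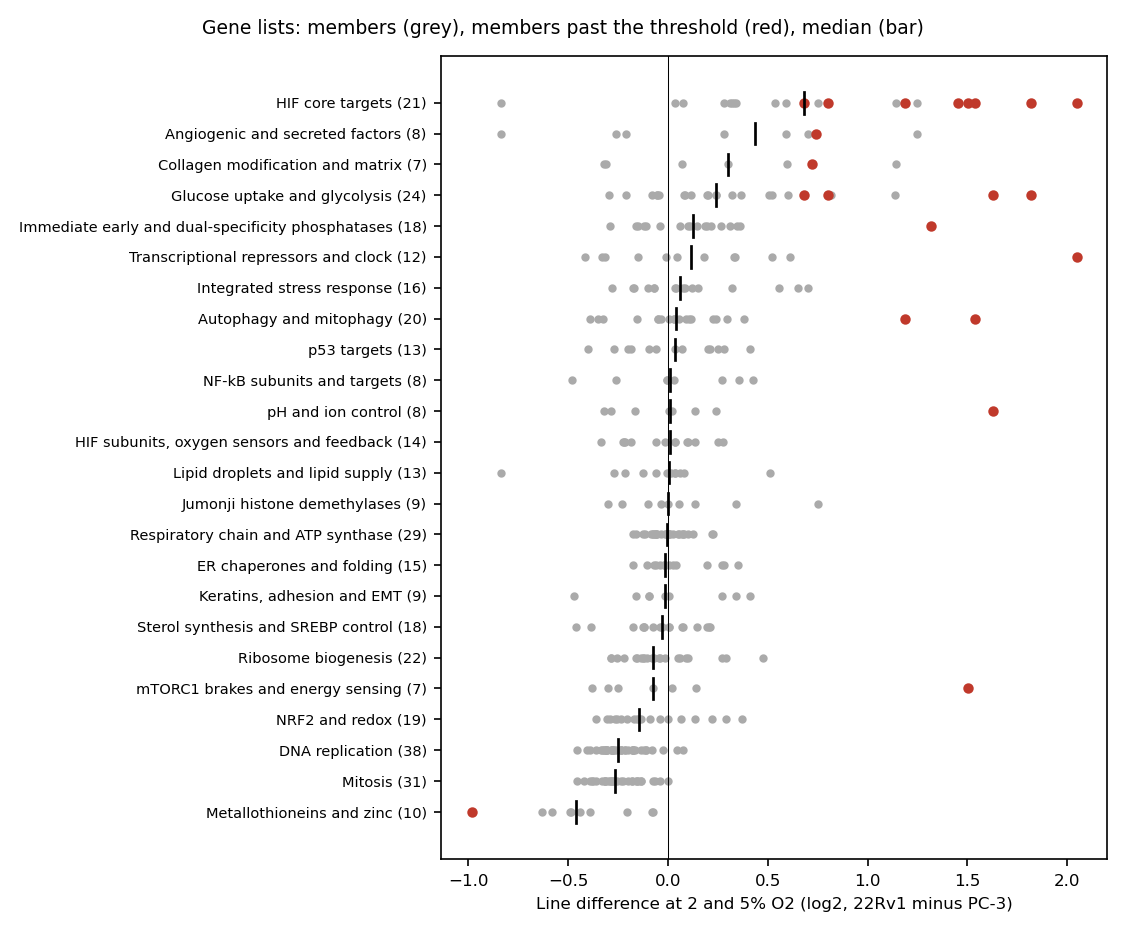
Line difference at 2 and 5% O2 (x axis, log2, 22Rv1 minus PC-3) of each measured member of 24 gene lists, numbers of members in parentheses, with members past the threshold in red and the list median as a bar. HIF core targets have the highest median (0.68) and metallothioneins the lowest (−0.46), and several genes are in more than 1 list.

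Between 14386 and 16002 of the probes were detected on each of the 16 arrays, and the arrays had median intensities from 86.4 to 117. Precision is limited by array number, since a line's change compares 4 arrays with 4.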

How the data were processed

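The data were 48 Illumina bead arrays of 2 cell lines in 24 groups of 2 replicates. The authors deposited non-normalized probe intensities with a detection p-value for each probe, and the submitters' processing notes name BeadStudio 3.1.3.0. The deposited value table holds normalized intensities of the same arrays, by a method not given in the sources used here, and served as an alternative. The labels of the deposited tables agreed for 46 arrays and were exchanged for 2 (22Rv1 replicate 2 at 0.2% O2), for which the column names of the probe table were used.

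Intensities were background-corrected from the detection p-values (normexp, offset 16), quantile normalized and taken to log2 with neqc in limma 3.58.1 (R 4.3.3), from the deposited intensities. The brightest probe stood for a symbol. A model with 1 mean per group was fitted to all 48 arrays, with a variance trend, 24 residual degrees of freedom and Benjamini-Hochberg adjustment over 10353 genes. Of the tested symbols, 7543 were current and 1359 were matched through a synonym. Errors are SE of the contrast. The fit was tested on simulated data.

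Replicate numbers paired the samples: deviations of a hypoxia array and its same-numbered control correlated at 0.447 to 0.576 (PC-3) and 0.235 to 0.532 (22Rv1), with means of 0.515 and 0.381. With same-numbered controls of other oxygen levels the means were 0.424 and 0.206, so much of the correlation is shared by a line's replicate set. Blocks by pair and by replicate over the line were alternatives, as were other normalizations, filters, probe rules, controls, labels and each array left out. Named genes were the 12 largest differences each way past the threshold whose pair changes did not overlap, the 4 largest each way at 2 and 5% O2 alone, the 5 largest each way for the step to lower oxygen, members of 27 gene lists past the threshold (otherwise the 2 with the largest differences) and all HIF core targets. Sizes needed detection on 2 of 4 arrays in every arm. SPRY2, SPRY4 and some list members given as examples were added after their values were seen. The members and lists were chosen with earlier results of these data known. Promoters are from RefSeq (GRCh38.p14). No column lacked a sample. Some genes counted here are not reported by name.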

Additional observations from a re-analysis of the deposited data

Results flagged for a closer look

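Each value here is a difference between the lines in their response to low oxygen that passed the limma test (log2, 22Rv1 minus PC-3). At 2 and 5% O2 together these included BHLHB2 (2.05), PFKFB4 (1.82), SLC16A3 (1.63), BNIP3 (1.54), DDIT4 (1.50), SPRY1 (1.32), BNIP3L (1.19), QSOX1 (1.08), PFKFB3 (0.80), S100A6 (0.80), VEGFB (0.74), PLOD1 (0.72) and LDHA (0.68). ANKRD37 had a difference of at least 1.10 in the main processing and of 0.45 without background correction, where it did not pass. The change was lower in 22Rv1 for SLCO4A1 (−1.20), OSBP2 (−1.17), MT1X (−0.98), E2F7 (−0.89), RRAGA (−0.55) and CBX2 (−0.49).

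At 2% O2 alone the genes included BHLHB2 (2.78), PFKFB4 (2.31), SLC16A3 (2.18), OSBP2 (−1.47), SLCO4A1 (−1.44), MT1X (−1.35) and E2F7 (−1.08). At 5% O2 alone BNIP3 passed (1.41). Between the mild and the lower oxygen levels the line difference itself moved, among others, for RAB31 (2.67), NBAS (1.20), TSPAN9 (1.16) and KRT18P13 (0.99), and in the other direction for TMEM158 (−1.36), PODXL (−1.24), SFN (−1.18), CCND3 (−1.07) and CEP135 (−1.01).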

How the results depend on the processing

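No named gene reversed its direction past the threshold. BHLHB2, PFKFB4, SLC16A3 and BNIP3 kept their call for the line difference at 2 and 5% O2 together under all alternatives other than the labels of the other table. The BNIP3 call at 5% O2 alone did not hold under several. Counts below are genes past the threshold, and the causes of the shifts were not tested. With the replicate block by pairs 177 genes passed for the line difference, 169 at 2% O2, 2 at 5%, 351 for the step to lower oxygen, 1667 in 22Rv1, 429 in PC-3 and 860 for 22Rv1 against PC-3 at lower oxygen; with the replicate block over the line the counts were 53, 62, 118 (step), 1011, 244 and 526. No call among the 23 genes was lost under either block. Without background correction 7 of the 23 calls were lost, and 7 with the deposited value table, under both those of MT1X, QSOX1, RRAGA, PLOD1 and ANKRD37 among them. Median centring, under which the median line difference of all genes was −0.31, gave 8, 5, 0, 2 (step), 77 (22Rv1), 161 (PC-3) and 24 (lower oxygen). Array weights gave 49, 48, 2, 101, 893, 321 and 461. Pooling the 12 controls of a line gave 83, 116, 1259 (step), 1689, 676 and 897. The labels of the other table gave 0, 0, 0 and 0 (step), 48 (22Rv1), 26 (PC-3) and 120. Without the 2 arrays whose labels differ, an alternative chosen after seeing the data, the counts were 36, 43, 2 and 236 (step). The step count was 24 without background correction, 24 with the deposited value table, 39 without a detection filter, 2 without a variance trend and 2 with only the 40 arrays at 0.2 to 5% O2. At 5% O2 alone 0 genes passed without a variance trend and 0 with only the 16 arrays, which gave 806 in 22Rv1. With 1 array left out the counts ran from 11 to 37 for the line difference, 10 to 31 at 2%, 0 to 5 at 5%, 2 to 256 for the step, 211 to 492 in 22Rv1, 50 to 140 in PC-3 and 133 to 337 for 22Rv1 against PC-3 at lower oxygen. Dim probes lie close to background, which limits their differences.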
